A study of Mus musculus with 61 samples.

Results

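Tph2, Slc6a4 and Fev were followed over 61 whole-brain slices of the adult mouse, called fractions here. The 3 genes were chosen by name as genes of serotonin neurons, and they are 3 of the 16355 genes that had a named probe. On GRCm38.p6 the gene Tph2 lies at chr10:115078641-115185022 on the minus strand, Slc6a4 at chr11:76998597-77032343 on the plus strand and Fev at chr1:74881501-74885473 on the minus strand. Each gene was read from 1 probe, the only one that carried its RefSeq name. Tph2 was well above background on 59 of the 61 arrays, Slc6a4 on 42 and Fev on 55, and all 3 genes were well above background together in 40 fractions.

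The brains came from 6 male C57BL/6J mice of 8 weeks, with no treatment and no engineered allele named. Each brain was frozen and cut in 1 direction into slices 5 µm thick, and 200 serial slices were pooled into a fraction 1 mm wide. The series C (13 fractions) and Co (16) ran from posterior to anterior, S (9) and So (10) from left to right, and H (6) and Ho (7) from dorsal to ventral. The letter o marks a brain cut at an oblique angle. Every series was 1 mouse, so mouse and cutting angle cannot be told apart, and the repeat of a position came from the 28 pairs of fractions that matched between both mice of a plane. An equal mass of total RNA went onto each 1-colour array, so a level is relative to all RNA of the fraction, and fewer serotonin neurons and less RNA per neuron cannot be told apart.

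Serotonin neurons of the brain have their cell bodies in the raphe nuclei, a column of cell groups along the midline of the brainstem, from the midbrain and rostral pons down to the medulla. Their axons reach nearly all of the brain, whereas most of their messenger RNA stays in the cell body. Tph2 encodes tryptophan hydroxylase, the rate-limiting enzyme of serotonin synthesis in neurons. Slc6a4 encodes the serotonin transporter, which takes released serotonin back up and is the target of antidepressant uptake inhibitors. Fev, also called Pet1, encodes an ETS-family transcription factor that serotonin neurons need to acquire and keep their transmitter identity.

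As ETS factors bind around a GGAA core, 250 bases before the start that the RefSeq promoter table on GRCm38.p6 gives for each gene are shown, written 5′ to 3′ along the gene's own strand, with GGAA and its reverse complement TTCC in capitals. The Tph2 sequence lies at chr10:115185023-115185272 on the minus strand, the Slc6a4 sequence at chr11:76998347-76998596 on the plus strand, and the Fev sequence at chr1:74885409-74885658 on the minus strand. The start used for Fev lies within the span given for the gene, which holds 65 of the 250 bases.
Tph2: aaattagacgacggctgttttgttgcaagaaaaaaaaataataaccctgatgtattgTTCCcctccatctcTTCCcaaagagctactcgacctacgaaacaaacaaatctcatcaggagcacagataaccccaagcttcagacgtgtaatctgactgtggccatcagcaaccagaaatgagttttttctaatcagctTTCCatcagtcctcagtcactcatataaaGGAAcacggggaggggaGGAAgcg
Slc6a4: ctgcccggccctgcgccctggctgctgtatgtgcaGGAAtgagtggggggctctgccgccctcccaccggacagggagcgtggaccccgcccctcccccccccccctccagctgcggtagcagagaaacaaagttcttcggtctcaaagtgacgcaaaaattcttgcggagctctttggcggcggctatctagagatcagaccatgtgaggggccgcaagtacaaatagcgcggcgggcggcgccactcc
Fev: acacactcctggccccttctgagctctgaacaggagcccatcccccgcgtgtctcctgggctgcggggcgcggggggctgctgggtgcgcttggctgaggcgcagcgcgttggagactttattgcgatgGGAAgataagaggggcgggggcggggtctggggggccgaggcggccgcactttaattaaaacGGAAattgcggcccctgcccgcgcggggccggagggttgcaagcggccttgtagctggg
Counting both strands, GGAA occurred 5 times before Tph2, 1 time before Slc6a4 and 2 times before Fev. Of 32851 promoter windows of this length, 93.4% held at least 1 GGAA and 76.8% at least 2, with a median of 3. The letters AGATAA, a core bound by GATA factors, were found 1 time before Tph2 and 1 time before Fev, in a window type where 9.99% held it. The TATA box letters TATAAA, held by 12.4% of windows, were found 1 time before Tph2. The share of G and C was 43.6% before Tph2, 64.8% before Slc6a4 and 68.0% before Fev, against a median of 52.4%. These matches describe letters in a window and not binding.

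Levels below are scaled intensities. The processed signal of each array was divided by that array's 75th percentile and multiplied by 1205, the median 75th percentile. The lowest signal of a probe well above background lay between 1.99 and 11.2 on this scale. An array detected between 57.9% and 73.1% of its probes, and no probe of the 3 genes was saturated. Differences are log2 differences tested with limma's moderated test, with Benjamini-Hochberg adjustment over all probes detected on at least 1 array.

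**Figure D1:**
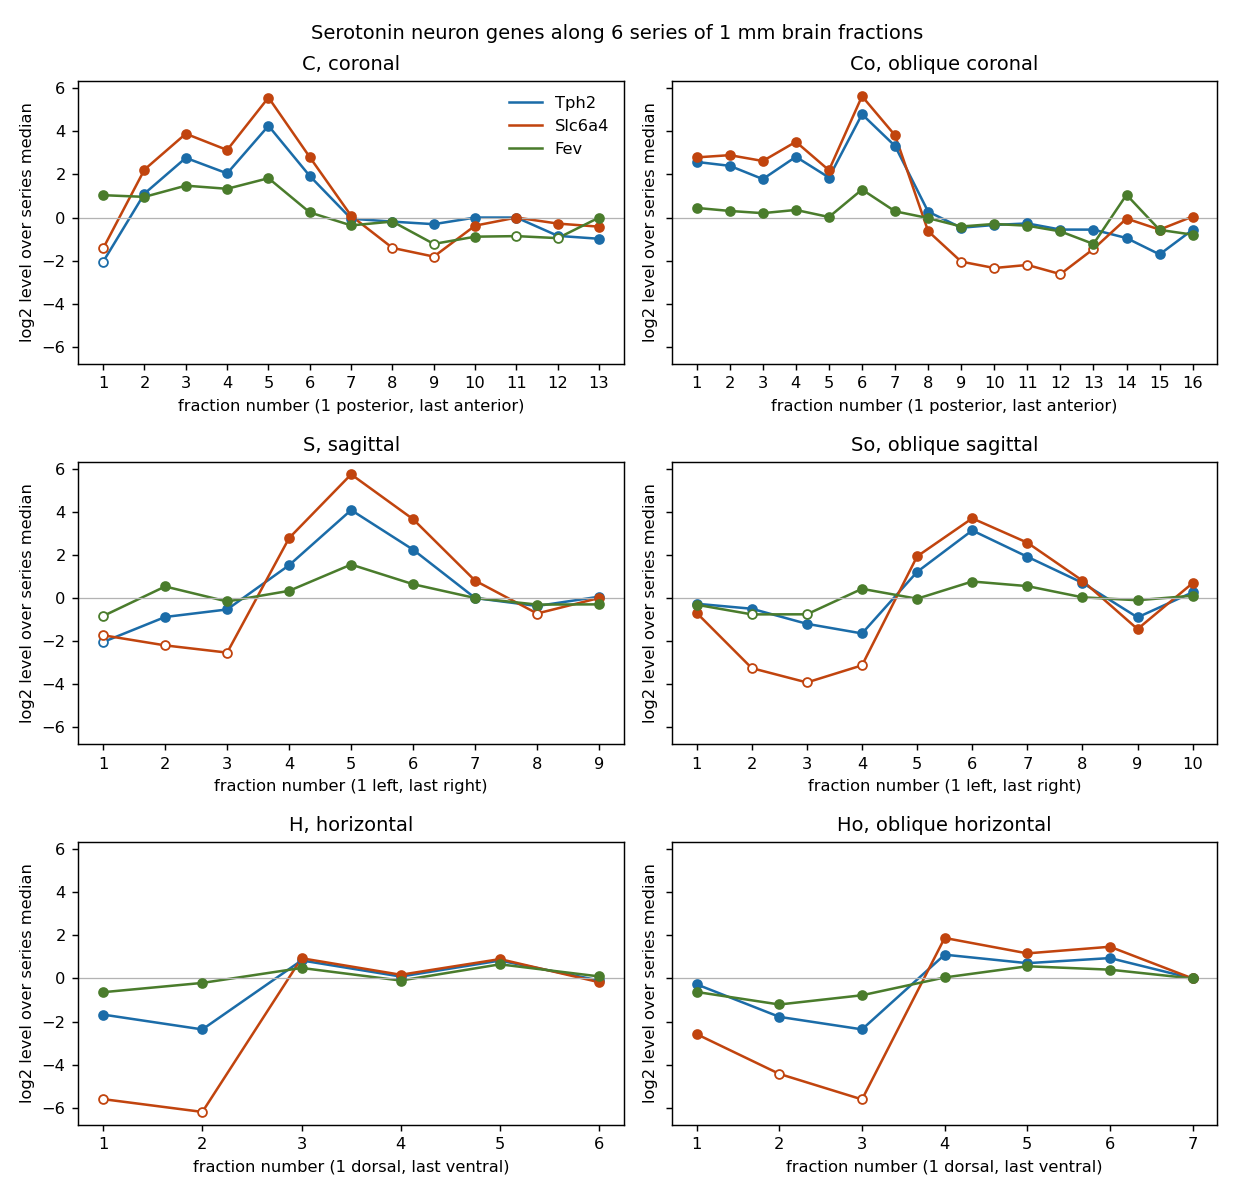
Log2 level of Tph2, Slc6a4 and Fev over the median of each series (y axis) against fraction number (x axis) in the 6 series, 1 point per fraction, with open points where the probe was not well above background. Tph2 and Slc6a4 peaked at C5, Co6, S5, So6, H3 and Ho4 in the 6 panels, and Fev peaked at C5, Co6, S5 and So6 in the coronal and sagittal panels.

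The transporter gene Slc6a4 peaked in 1 coronal fraction of each mouse, with raised levels in the fractions around it. Its level was 1817 in C5 and 2197 in Co6, against series medians of 38.3 and 44.4. The posterior fractions around C5 read 179 in C2, 567 in C3, 336 in C4 and 267 in C6. Co1 to Co5 read 307, 330.3, 274, 507 and 203, and Co7 read 624. From C7 and Co8 forward every fraction of both mice was at or below 45.9. The peak was 166 times the lowest reading of C and 305 times that of Co. Neither lowest fraction was well above background, so both ratios rest on readings near background and are imprecise.

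Tph2 had the same peak fractions. It read 944 in C5 and 1459.5 in Co6, against medians of 49.4 and 53.6. In the anterior fractions C7 to C13 it lay between 25.0 and 49.4, and in Co8 to Co16 between 16.1 and 63.6. Unlike the transporter gene, Tph2 was well above background in every fraction from C7 and Co8 forward. The lowest of these readings lay close to the 12.0 of C1 and the 13.6 of S1, which were not well above background. In the 19 fractions of all series in which Slc6a4 was not well above background, at levels of 2.99 to 16.2, Tph2 was in 17 and Fev in 15. Tph2 lay between 12.0 and 65.4 in those 19 fractions, with a median of 38.7.

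Fev, the transcription factor gene, was also highest in C5 of one mouse and in Co6 of the other, at 73.6 and 104, but its range was narrow. Its medians were 20.8 in C and 42.2 in Co. Co14 was the second highest fraction of Co at 87.8, whereas the matching C12 read 10.7 and was not well above background. Being highest in C5 as well as in Co6, a pattern named after its values were seen, was found in 0.478% of the 36573 probes detected.

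Between the peak and a smaller shoulder behind it, 1 fraction of each mouse was low. Slc6a4 in C5 was 5.40 times the level of C4, and C3 was 1.69 times it. In the other mouse Co6 was 10.8 times Co5, and Co4 was 2.49 times it. Tph2 showed the same order, with C5 at 4.62 times and C3 at 1.65 times C4, and Co6 at 7.65 times and Co4 at 1.95 times Co5. For Fev the steps were 1.41 and 1.11 in C and 2.42 and 1.26 in Co. Co5 and Co6 shared a slide, whereas C4 and C5 were on different slides. This dip was described after its values were seen and has no test. It was seen in 9.26% of probes.

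Over the caudal pairs (C1/Co2 to C6/Co7) against the rostral pairs (C7/Co8 to C13/Co15), all 3 genes were higher caudally. The log2 difference was 4.12 (SE 0.34, adjusted p = 9.70e-12) for Slc6a4, 2.71 (SE 0.30, adjusted p = 4.96e-09) for Tph2 and 1.19 (SE 0.26, adjusted p = 0.000355) for Fev. Among rostral fractions Slc6a4 was well above background in 5 of 7 in C and 3 of 7 in Co. Of the probes tested, 24.8% were higher and 18.7% lower caudally. In Co no caudal fraction of Slc6a4 or Tph2 overlapped the rostral ones. In C both genes overlapped because of C1, the most posterior fraction, where Slc6a4 read 14.2 and Tph2 12.0, neither well above background. With slide as a fixed block the estimates were 3.51 for Slc6a4 (adjusted p = 0.0987), 1.55 for Tph2 (adjusted p = 0.533) and 0.69 for Fev (adjusted p = 0.508), and the calls were lost. Slides held runs of neighbouring fractions. Within the fractions of C scanned on 1 day, C1 to C12, the differences were 3.33, 1.91 and 1.89.

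In the sagittal plane the genes peaked in the fraction over the midline, where the raphe lies. Slc6a4 read 1369.7 in S5 and 1016 in So6, with neighbours of 177 in S4 and 324 in S6, and of 299 in So5 and 464 in So7. Tph2 read 947 in S5 and 811 in So6, with neighbours of 161 and 264, and of 214 and 348. In both mice the right-hand neighbour was above the left-hand one for both genes. Fev read 102 in S5 and 74.99 in So6. A highest fraction at S5 as well as at So6, also named after its values were seen, was found for all 3 genes and for 3.16% of probes.

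The middle pairs (S4/So5 to S6/So7) exceeded the lateral pairs by 4.78 (SE 0.43, adjusted p = 2.13e-09) for Slc6a4 and by 2.94 (SE 0.38, adjusted p = 1.27e-06) for Tph2 on the log2 scale, and no middle fraction of either gene overlapped a lateral one in S or in So. Slc6a4 was well above background in 2 of the 6 lateral fractions of S and in 3 of the 6 of So. The size of its difference thus rests partly on readings near background. Of all probes 7.59% were higher and 6.33% lower in the middle. The Fev difference of 0.81 (SE 0.33) did not pass (adjusted p = 0.112), and its groups overlapped in both mice. With the mouse as a replicate block the same difference had an adjusted p of 0.0182, and with slide as a random block 0.0143. When fractions were paired by their own number the Tph2 difference was 2.09 (adjusted p = 0.0628). Within the fractions of S scanned on 1 day, S2 to S9, the differences were 4.99 for Slc6a4, 2.96 for Tph2 and 0.89 for Fev.

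In the horizontal plane Slc6a4 and Tph2 were high in the last 4 fractions of each mouse, and highest in the most dorsal of those. Slc6a4 read 459, 269.7, 446 and 212 in H3 to H6 and 537, 327, 405 and 146 in Ho4 to Ho7. In H1, H2, Ho2 and Ho3 it was not well above background, at 2.99 to 6.79. Tph2 read 318, 189, 317 and 167 in H3 to H6 and 342, 260.3, 307 and 159 in Ho4 to Ho7. H4 and Ho5 lay between higher neighbours for both genes. That dip, also described after its values were seen, was found in 6.05% of probes, and for Fev in H only.

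A highest fraction at H3 and Ho4, again named after its values were seen, was found for Slc6a4 and Tph2, and for 3.62% of probes. As H3 and Ho4 belong to the dorsal pairs, ventral and dorsal fractions overlapped for all 3 genes. The ventral pairs (H4/Ho5 to H6/Ho7) exceeded the dorsal ones by 3.76 (SE 0.49, adjusted p = 2.16e-06) for Slc6a4 and by 1.45 (SE 0.44, adjusted p = 0.0231) for Tph2. The share of all probes higher ventrally was 7.40%, and 5.16% were lower. Fev differed by 0.65 (SE 0.38, adjusted p = 0.338). The Tph2 call was lost without H3, H5, Ho2 or Ho5, where the estimate was 1.44, 1.45, 1.41 and 1.38. With the boundary moved 1 pair ventrally it was 1.10 (adjusted p = 0.141), and with slide as a random block 1.52 (adjusted p = 0.0804). With the boundary moved 1 pair dorsally, so that H3 and Ho4 counted as ventral, the differences were 2.599 (adjusted p = 0.000139) for Tph2 and 6.25 (adjusted p = 7.30e-10) for Slc6a4.

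**Figure D2:**
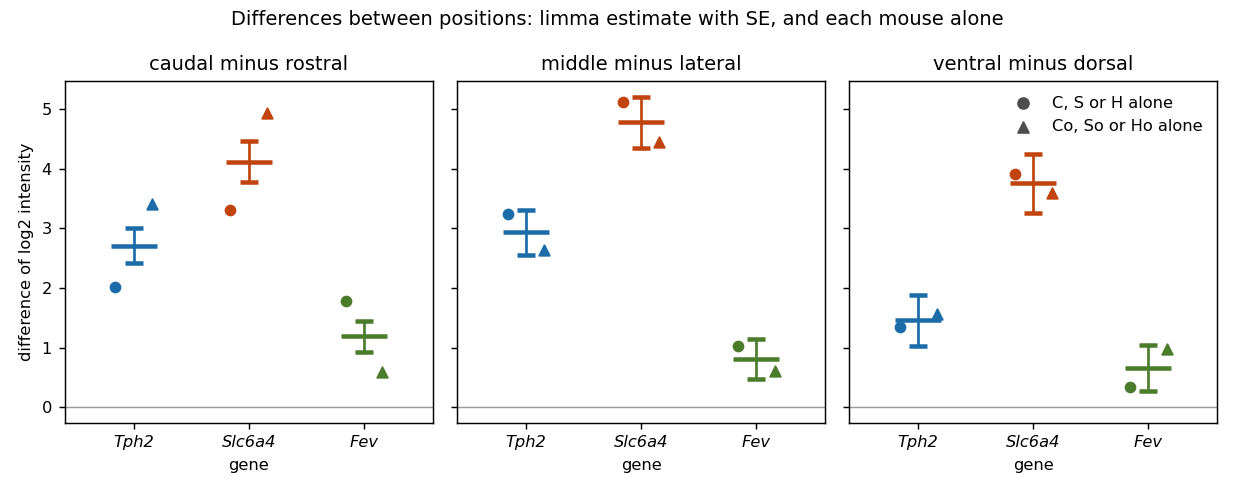
Log2 differences (y axis) of Tph2, Slc6a4 and Fev (x axis) between caudal and rostral, middle and lateral, and ventral and dorsal pairs (panels). Shown are limma's estimate ± SE and the value of each mouse alone as a circle (C, S, H) and a triangle (Co, So, Ho). Slc6a4 had the largest estimate of the 3 in every panel, and all 18 single-mouse values were above 0.

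The sign held in each mouse alone. The Slc6a4 difference was 3.30 in C and 4.94 in Co for caudal over rostral, 5.12 in S and 4.44 in So for middle over lateral, and 3.92 in H and 3.60 in Ho for ventral over dorsal. For Tph2 the same 6 values were 2.02, 3.40, 3.24, 2.63, 1.34 and 1.56. For Fev they were 1.79, 0.59, 1.02, 0.60, 0.34 and 0.97. Normexp background correction with quantile normalization gave smaller caudal, middle and ventral differences, of 2.26, 2.57 and 1.32 for Slc6a4, 1.69, 1.88 and 0.78 for Tph2, and 0.33, 0.29 and 0.15 for Fev.

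Variation over all 28 pairs passed for Slc6a4 (F = 19.1, adjusted p = 5.97e-11) and Tph2 (F = 9.07, adjusted p = 2.38e-07). It did not for Fev (F = 1.90, adjusted p = 0.0707), although it did with the mouse as a replicate block (F = 3.23, adjusted p = 0.00272). Across all probes 61.2% passed. The log2 SD within pairs was 0.88 for Slc6a4, 0.78 for Tph2 and 0.68 for Fev. The widest pair was C1/Co2 for Slc6a4 and Tph2, each 4.54 apart, and C12/Co14 for Fev, 3.03 apart. Leaving out C12 or Co14 gave Fev an adjusted p of 0.00513 or 0.00391.

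Ordered by geometric mean, the coronal pairs of Slc6a4 read 1998 at C5/Co6, 537 at C3/Co4, 408 at C6/Co7, 262 at C4/Co5, 221 at C2/Co3 and 68.6 at C1/Co2. The gaps below the first and the fifth, 1.90 and 1.69, exceeded the within-pair SD, and the others among these did not. Tph2 gave the same order, from 1174 at C5/Co6 and 354 at C3/Co4 to 57.7 at C1/Co2, with gaps of 1.73 and 1.27 at the same places. The top pair of Fev, 87.5 at C5/Co6, was 0.65 above the next and within its SD. In the horizontal plane the Slc6a4 pairs H3/Ho4, H5/Ho6, H4/Ho5 and H6/Ho7 read 497, 425, 297 and 176, each within the SD of its neighbour, and the next pair, H1/Ho2, was 4.92 lower on the log2 scale at 5.79.

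Levels of the mouse cut obliquely and of its partner differed for Fev in the coronal plane. Co exceeded C by 0.93 (SE 0.20, adjusted p = 0.000275) with pair as a term, against 0.50 (SE 0.28, adjusted p = 0.144) for Tph2 and 0.08 (SE 0.34, adjusted p = 0.871) for Slc6a4. In that comparison 53.5% of probes passed. No member passed between So and S, with estimates of 0.60 for Tph2, 0.74 for Slc6a4 and 0.21 for Fev, where 30.1% of probes passed. None passed between Ho and H, with 0.00, 0.02 and 0.33, where 5.35% of probes passed.

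**Figure D3:**
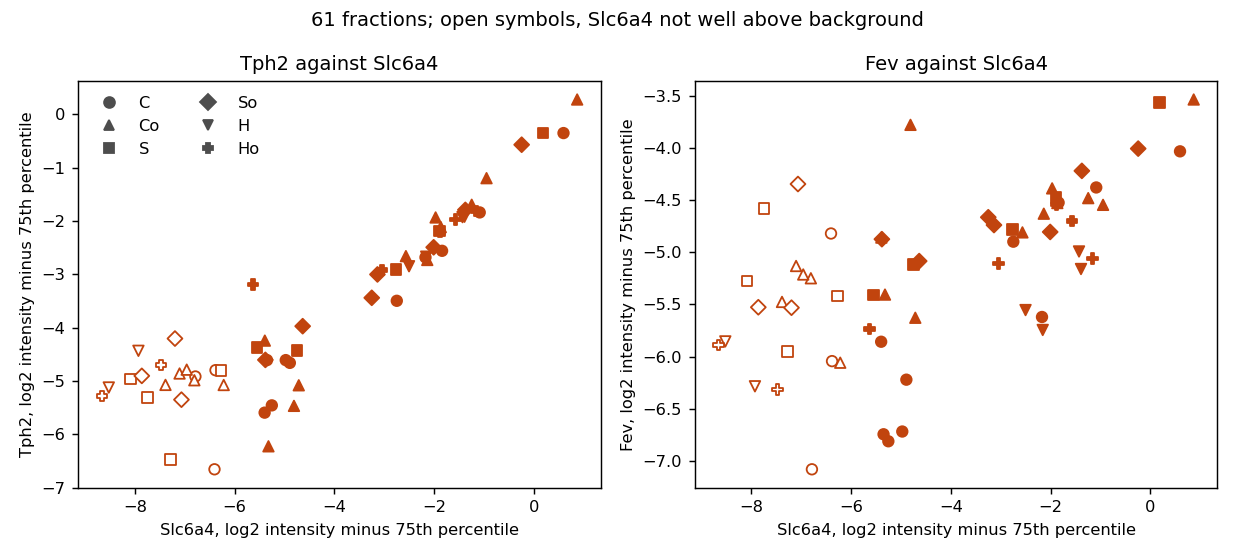
Log2 level of Tph2 and of Fev (y axes) against that of Slc6a4 (x axis) in the 61 fractions. Each series has its own marker shape, and points are open where Slc6a4 was not well above background. Where both were well above background, Tph2 and Slc6a4 had a Pearson r of 0.945 over 42 fractions, and Fev and Slc6a4 an r of 0.656 over 40.

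Tph2 and Slc6a4 had closely similar profiles. Over all 61 fractions the Pearson r was 0.906 and the Spearman rho 0.868, and within single series r was 0.914 to 0.981. Fev followed less closely, with r of 0.611 with Tph2 and 0.618 with Slc6a4, and rho of 0.585 and 0.640. Without the 2 fractions farthest from the median the 3 values of r were 0.894, 0.541 and 0.570. Fractions of a series share a brain, and neighbours share anatomy, so these values describe the profiles and carry no p.

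Among the genes most like the mean profile of the 3 over 61 fractions were Slc18a2 (r = 0.842), Rhd (0.816), Sncg (0.794), Slc6a2 (0.794), Nkx6-1 (0.793), Calcb (0.785), Rit2 (0.782), Irx4 (0.780) and Marco (0.771), of 14041 genes ranked. Slc18a2 encodes the vesicular monoamine transporter of serotonin, dopamine and noradrenaline neurons, and Slc6a2 the noradrenaline transporter. None of these had its highest coronal fraction at both C5 and Co6. For Slc6a4 alone the next after Tph2 was Slc18a2 (0.878), and for Tph2 the next after Slc6a4 was Slc18a2 (0.797). For Fev the closest were Cep43 (0.745), Irx4 (0.743) and Wrap53 (0.737).

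**Figure D4:**
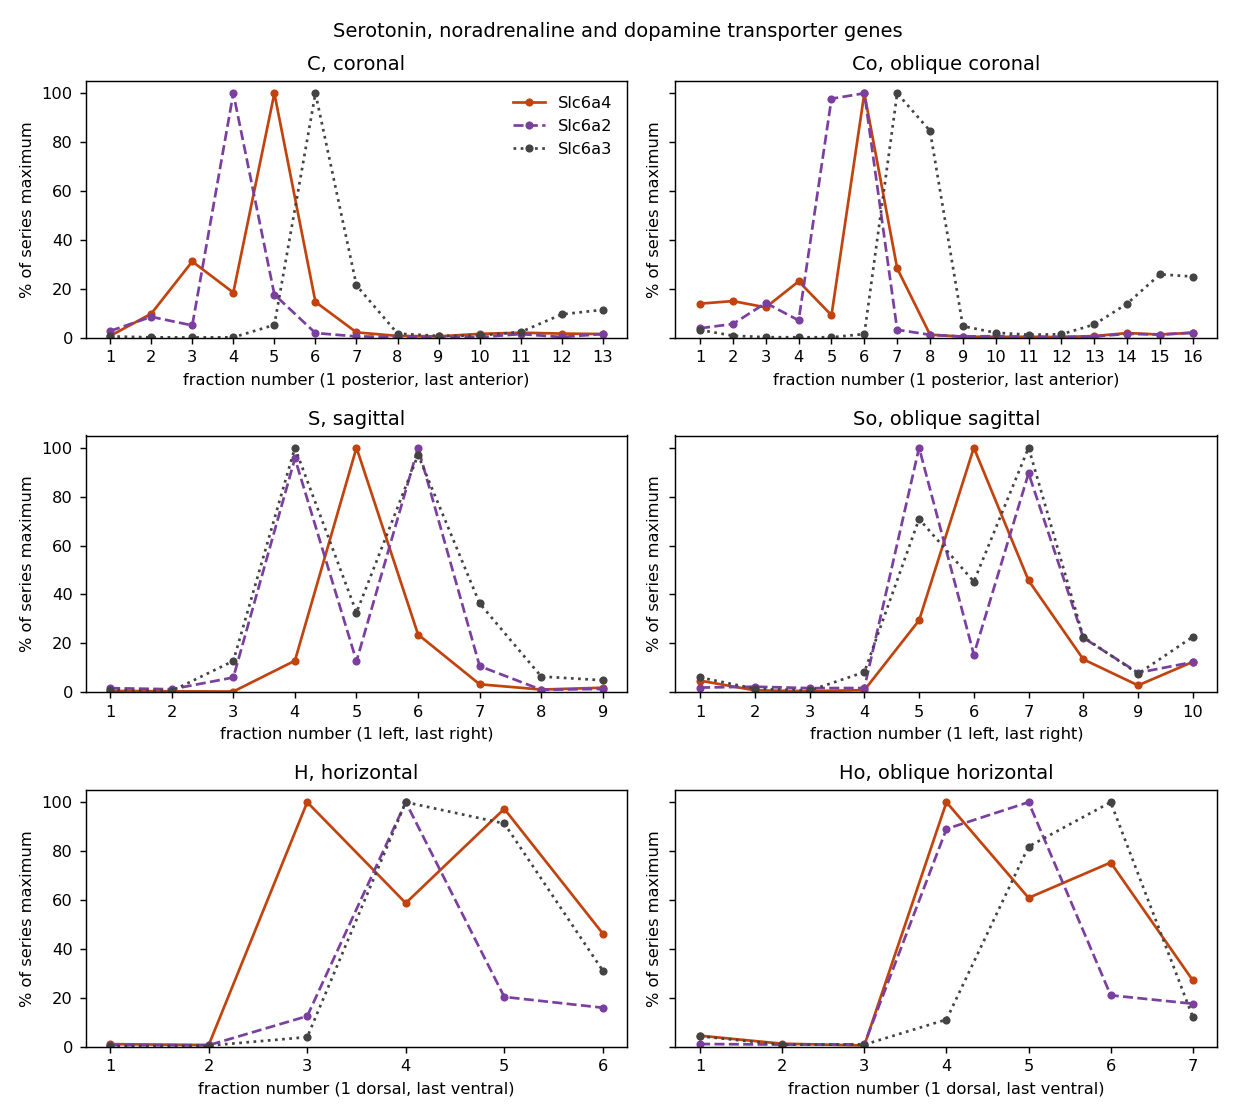
Level of the serotonin (Slc6a4), noradrenaline (Slc6a2) and dopamine (Slc6a3) transporter genes as a percent of the highest fraction of each series (y axis) against fraction number (x axis). The peaks fell at C5, C4 and C6 in C but at Co6, Co6 and Co7 in Co, and at the sagittal midline Slc6a4 was at its maximum while Slc6a2 stood at 12.7% in S5 and 15.4% in So6.

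The transporter genes of the other monoamines were compared in the same fractions. Slc6a2, whose neurons lie in the locus coeruleus of the pons, read 760.1 in C4 and 135 in C5, and 634 in Co5 and 649 in Co6. Its maximum in C fell on C4, the fraction of the Slc6a4 dip, where Slc6a4 stood at 18.5% of its own maximum. In the other mouse both genes had their maximum in Co6, and in Co5 Slc6a2 stood at 97.8% and Slc6a4 at 9.26% of it. Slc6a3, the gene of midbrain dopamine neurons, was highest in the next fraction forward, at 22870.2 in C6 and 13292 in Co7. Across the midline Slc6a2 read 386, 51.5 and 404 in S4 to S6 and 341, 52.6 and 305 in So5 to So7, lower in the fraction of the Slc6a4 peak than in both of its neighbours. In the horizontal plane Slc6a2 read 369.9 in H4 against 46.4 in H3, while H4 held 58.8% of the Slc6a4 maximum. That separation was not seen in the other mouse, where Slc6a2 stood at 89.1% of its maximum in Ho4, the Slc6a4 peak, and was highest in Ho5.

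**Figure D5:**
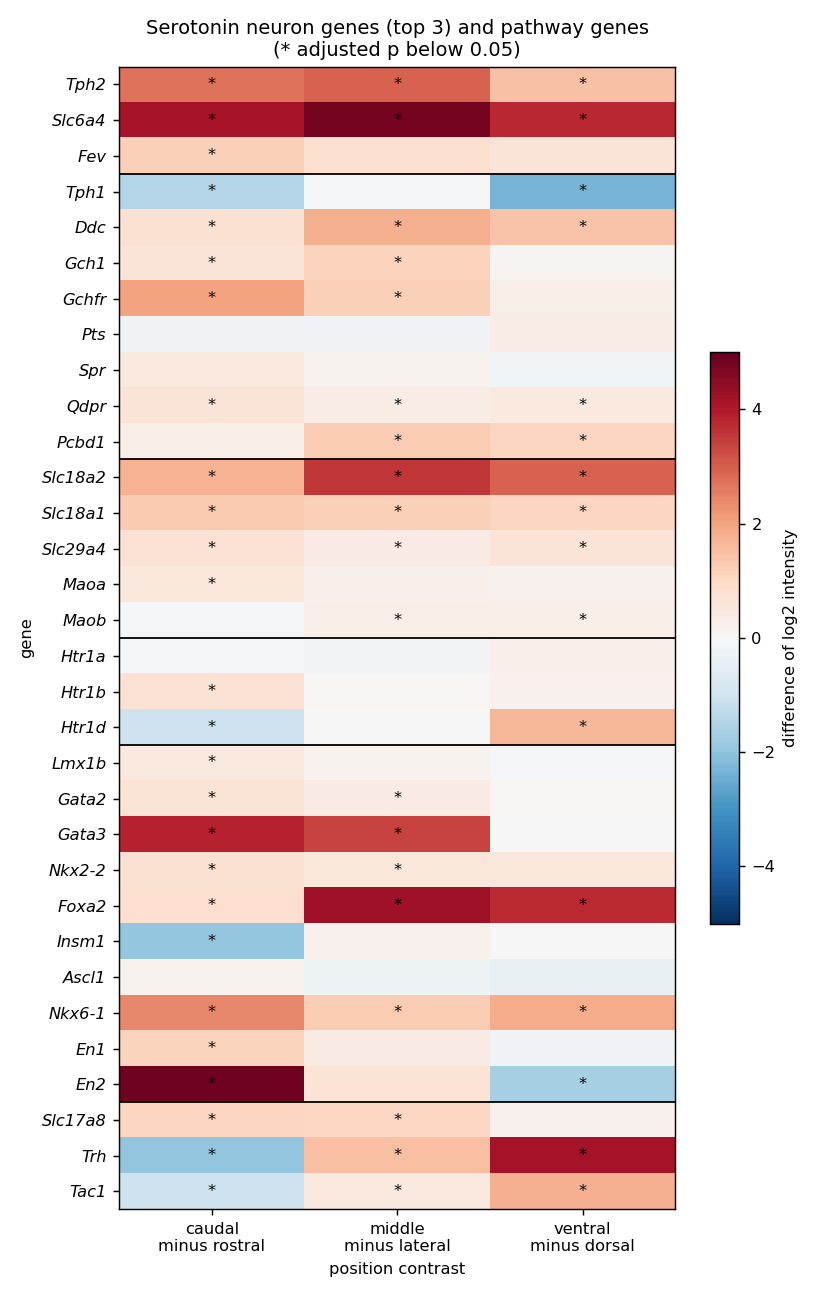
Heat map of limma's log2 differences for the 3 serotonin neuron genes and 29 pathway genes (rows) in the 3 position contrasts (columns), with an asterisk where the adjusted p was under 0.05. Of the 29, 18 were higher and 5 lower caudally (24.8% and 18.7% of all probes), 17 and 0 in the middle (7.59% and 6.33%), and 12 and 2 ventrally (7.40% and 5.16%).

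Other genes of the pathway were grouped in 5 lists of 30 genes in all, of which 29 were detected and Slc22a3 was not. Over the 29, 25 varied over pairs, where 61.2% of all probes did. Caudally 18 were higher and 5 lower, against 24.8% and 18.7% of probes, with a median log2 difference of 0.65 against 0.06 over all probes. In the middle 17 were higher and 0 lower, against 7.59% and 6.33% of probes, with a median of 0.42 against 0.02. The 17 became 7 with fractions paired by their own number and 9 with a narrowed middle. Ventrally 12 were higher and 2 lower, against 7.40% and 5.16% of probes, with a median of 0.29 against -0.01. The shares of all probes in these contrasts are the background for each list below. With slide as a fixed block the caudal counts were 4 and 2.

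Of the 8 genes of synthesis and its cofactor, 4 were higher and 1 lower caudally (24.8% and 18.7% of probes), 5 were higher in the middle (7.59%), and 3 were higher and 1 lower ventrally (7.40% and 5.16%). Ddc, the decarboxylase that makes serotonin as well as dopamine, was higher by 0.74, 1.77 and 1.42 in the caudal, middle and ventral contrasts. Gch1, which starts the making of the tetrahydrobiopterin cofactor, was higher by 0.63 caudally and 1.15 in the middle, and its regulator Gchfr by 2.03 and 1.18, the latter call lost in 1 of 18 fits that each left out 1 array. Pcbd1, which recycles the cofactor, was higher by 1.25 in the middle and 1.08 ventrally. Tph1, the hydroxylase of the pineal gland and the periphery, was lower by 1.47 caudally and 2.31 ventrally. It read 4056 in H1, where Tph2 read 55.7.

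Of the 5 tested genes of storage, transport and breakdown, 4 were higher in each contrast, against 24.8%, 7.59% and 7.40% of probes. Slc18a2 was higher by 1.74, 3.58 and 2.95. Its coronal maximum, 1768 in C6 and 2272 in Co7, was 1 fraction anterior to the serotonin peak, at the fractions where Slc6a3 was highest. At the serotonin peak it was nearly as high, at 87.3% of that maximum in C5 and 91.8% in Co6. Its relative Slc18a1 was higher by 1.30, 1.17 and 1.08. In the sagittal series Slc18a1 was well above background only in S5 to S7 and So6 to So8. Its middle difference thus rests largely on readings near background. Slc29a4, a low-affinity monoamine transporter, was higher by 0.71, 0.41 and 0.64, and its middle call was lost in 9 of 18 fits that each left out 1 array. Maoa, an enzyme of serotonin breakdown, was higher by 0.54 caudally.

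Of the 3 autoreceptor genes, Htr1b was higher by 0.72 caudally, and Htr1d was lower by 1.02 caudally and higher by 1.67 ventrally. Htr1a, the receptor on serotonin cell bodies and on many forebrain neurons, passed no position contrast. It was nevertheless highest at C5 (495) and Co6 (279), as named here after its values were seen.

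Of the 10 transcription factor genes, 8 were higher and 1 lower caudally (24.8% and 18.7% of probes), 5 higher in the middle (7.59%), and 2 higher and 1 lower ventrally (7.40% and 5.16%). Gata3, which acts with Gata2 upstream in serotonin neurons and is also used elsewhere, was higher by 3.86 caudally and 3.38 in the middle. Gata2 was higher by 0.70 and 0.42, and its middle call was lost in 8 of 18 fits without 1 array. It was highest in C5, Co6, S5 and So6, as named after its values were seen. Of the 29 pathway genes, 3 were highest at C5 and Co6, against 0.478% of probes. These were Gata2, Gch1 and Htr1a. At S5 and So6 8 of the 29 were highest, against 3.16% of probes. En2, a marker of the midbrain-hindbrain region, was higher by 4.88 caudally and lower by 1.67 ventrally, and En1 was higher by 1.10 caudally. In the coronal series En1 was well above background only in C3, C4, C9, Co1, Co2, Co6, Co7 and Co12. Its difference thus rests largely on readings near background. Nkx6-1 was higher by 2.41, 1.28 and 1.86, and Nkx2-2 by 0.74 caudally and 0.58 in the middle. Foxa2, also a gene of dopamine neurons, was higher by 4.25 in the middle and 3.72 ventrally, while its caudal value of 0.84 turned to -0.89 with the boundary moved 1 pair caudally. Foxa2 was not well above background in S1, S2, S8, S9, So2 to So4, So9, H1, H2, Ho2 and Ho3. Its middle and ventral differences thus rest partly on readings near background. Insm1 was lower by 1.92 caudally.

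Of the 3 cotransmission genes, Slc17a8, the vesicular glutamate transporter of many raphe neurons, was higher by 1.07 caudally and 1.05 in the middle. The peptide genes Trh and Tac1 were lower by 1.98 and 1.05 caudally, and higher by 4.18 and 1.78 ventrally.

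The dip between shoulder and peak was shared by 11 of the 29 pathway genes, against 9.26% of probes, as counted after its values were seen. The 11 were Ddc, Gch1, Gchfr, Htr1a, Maob, Pcbd1, Qdpr, Spr, Tac1, Tph1 and Trh, and Slc18a2 was not among them. The dip of Gchfr was slight in C, with C5 at 1.03 times C4. In Co4 to Co6 Ddc read 3219, 2364 and 6785, whereas Slc18a2 read 730, 755 and 2085.

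Markers of other cells moved along the same axes. Myelin genes of oligodendrocytes were higher in 5 of 5 in each contrast, with medians of 0.92, 0.68 and 0.80. Without 1 array, the middle call was lost in 10 of 18 fits for Mbp and in 6 of 18 for Mog, and the ventral call in 2 of 12 for Mog. Their summed level ran from 121405 to 458390 in C and from 108184 to 455921 in Co, highest at C1 and Co1, and was 240042 in C5 and 296744 in Co6. The 4 Hox genes of the medulla were all higher caudally, as were the 4 detected genes of cerebellar granule cells, and Hox genes summed to 14197 in C1 but 430 in C5. The 3 genes of telencephalic projection neurons were all lower caudally. Mast cells, which can also hold serotonin, showed 0 of 5 genes called in any position contrast. Their summed level was 161 in C5, the highest of C, and 45.0 in So6, the lowest of So, with 64.1 in Co6, and Tpsb2 and Ms4a2 were not detected in C or Co. Pineal genes were called higher in 0 contrasts, and 3 of 4 were lower ventrally, of which Sag lost its call in 8 of 12 fits without 1 array. Of the 5 catecholamine genes, 2 were higher and 2 lower caudally, and 4 were higher in the middle and 4 ventrally. The part of these cells in the differences was not tested.

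Values of outer fractions are given here. So10, the last on the right, read 127 for Slc6a4 and 111 for Tph2, against 28.9 and 49.5 in So9, and there Slc6a3 read 2196 against 734 and Tph1 195 against 61.0. Co1, the most posterior fraction, read 307 for Slc6a4 and 315 for Tph2, close to the 330.3 and 278 of its neighbour Co2, where C1 read 14.2 and 12.0, with Gata3 at 563 in Co1. Anterior fractions Co14 to Co16 read 42.9, 30.1 and 45.9 for Slc6a4, above the 7.21 to 16.2 of Co9 to Co13. The part of these values in the other results was not tested.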

How the data were processed

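RNA from 61 brain fractions of 6 mice was hybridised by the authors to 1-colour Agilent whole mouse genome arrays, 1 fraction and 500 ng of total RNA per array. The intensity values were deposited as scanner output of Feature Extraction 9.1.3.1, per the file headers, with local background already subtracted from the processed signal. The flags of background and saturation come from the same files. The log2 level used here was log2 of the processed signal minus the 75th percentile of its array, with 2299 spots carrying an outlier flag left out and repeated spots averaged. The table of 36558 rows that the authors normalized, whose intensities were deposited per array, served as an alternative only. Probes were named through RefSeq identifiers, and of several probes of a gene the one with the highest mean signal was kept. Of 41174 probes, 36573 were well above background on at least 1 array and were tested.

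Fractions of one mouse were paired with those of the other mouse of the same plane at matching positions, giving 28 pairs, which takes the fractions of S as numbered from 1 to 9. In the deposited titles each fraction of S bears a number 1 higher than here. Models were fitted with limma 3.58.1 in R 4.3.3, with pair as the group, for variation over pairs and for the 3 position contrasts, and with pair and series for differences between mice. Benjamini-Hochberg adjustment ran over all probes tested, with a threshold of 0.05. The fit was also run on simulated data with independent noise on each array. As no mouse or slide effect was simulated, that run cannot show how such effects bear on the p-values. Within the same mouse, fractions deviated from their pair means together: 114 of 129 combinations had a correlation above 0.1 (median 0.28), against 7 of 249 between mice. Alternatives covered scaling, background correction, filters, pairing, blocks for mouse and slide, boundaries, single mice and leaving out each array. Arrays were on 16 slides and scanned on 5 days. With 2 mice a plane, p-values measure the spread between paired fractions. Precision is bounded by the 2 mice of a plane, as fractions of 1 mouse are not independent.

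The 3 genes, the pathway lists and the marker lists were chosen with earlier results of these data known. Genes given with values were the 3 members, list genes that passed a position contrast with the same sign in both mice (up to 8 per list), the defining markers, and the genes most like the members over 61 fractions, of which 1 is not reported here.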

Additional observations from a re-analysis of the deposited data

Results flagged for a closer look

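In 5 fractions that had no partner in the other mouse and so entered no test, 14 of the 15 values of Tph2, Slc6a4 and Fev were well above background. Tph2 read 76.8 in So1, 315 in Co1, 35.8 in Co13, 35.6 in Co16 and 132 in Ho1. Slc6a4 read 48.5 in So1, 307 in Co1, 45.9 in Co16 and 24.4 in Ho1, and was not well above background in Co13. Fev read 35.5 in So1, 57.6 in Co1, 18.1 in Co13, 24.4 in Co16 and 22.6 in Ho1. Co1 was the brightest of the 5 for all 3 genes. Among 24 tests for a fraction far from the others of S, So, H or Ho, 0 passed Dixon's limit, and the coronal series, with more than 10 fractions each, were not tested.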

How the results depend on the processing

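Of 295 checks of a compared value under an alternative, 263 kept direction and side of the threshold, or stayed close to the value reported, and 32 did not. Slides held neighbouring fractions. With slide as a fixed block, the fit gave caudal over rostral as 1.55 (adjusted p = 0.533) for Tph2, 3.51 (0.0987) for Slc6a4 and 0.69 (0.508) for Fev, ventral over dorsal as 1.56 (0.497) for Tph2, 4 pathway genes higher and 2 lower caudally, and 0 lower ventrally. The fixed block also gave variation of Fev an adjusted p of 0.00782, and middle over lateral could not be estimated with it. As a random block, slide gave variation of Fev 0.0160, middle over lateral of Fev 0.81 (0.0143) and ventral over dorsal of Tph2 1.52 (0.0804).

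With the mouse as a replicate block, variation of Fev had an adjusted p of 0.00272, middle over lateral of Fev was 0.81 (0.0182) and 1 pathway gene was lower in the middle, and the block changed no other call of the 3 genes. Background correction by normexp with quantile normalization gave Fev 0.0115 for variation, 0.29 (0.0363) in the middle and a peak of 0.48 over the series median, and lowered the caudal, middle and ventral differences to 2.26, 2.57 and 1.32 for Slc6a4 and to 1.69, 1.88 and 0.78 for Tph2, and the caudal one of Fev to 0.33. Pairing fractions by their own number gave Tph2 2.09 (0.0628) in the middle and 1.87 (0.159) ventrally, Foxa2 -0.10 caudally, 7 pathway genes higher in the middle and 0 lower ventrally. Boundaries moved by 1 pair gave Tph2 1.10 (0.141) or 2.599 (0.000139) and Slc6a4 2.76 or 6.25 ventrally, Foxa2 -0.89 caudally and, with a narrowed middle, 9 pathway genes higher. With median scaling, Ho over H was -0.023 for Tph2 and -0.0016 for Slc6a4, neither of which passed. Centring each series gave a correlation of Slc6a4 with Fev of 0.72.

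With only probes well above background on all arrays, none of the 3 genes was left, and of the pathway genes 15 varied, 11 were higher and 1 lower caudally, and 1 was lower ventrally. Sagittal pairs alone left 12 pathway genes varying and horizontal pairs alone 14. Leaving out each array in turn gave Fev an adjusted p for variation of 0.00391 to 0.135, under 0.05 without C12, Co10, Co11 or Co14, and Tph2 a ventral difference of 1.38 to 1.53. Counts over all probes moved by more than 1.5 times under some alternatives, from 2774 higher and 2315 lower in the middle to 640 to 5358 and 358 to 4515, from 2704 higher and 1888 lower ventrally to 798 to 5034 and 604 to 4118, from 9047 higher and 6833 lower caudally to 1703 and 1741 with slide fixed, and from 22385 varying to 2392 to 14740. The causes were not tested. No other probe of the 3 genes could be tried, as each had 1. Signal near background limits the low end of Tph2, Slc6a4, Fev, Foxa2 and Slc18a1 and most values of En1, where fractions have only an upper bound.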
